A study of Homo sapiens with 6 samples.

Results

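10 genes of the BCL2 family, whose proteins govern the release of cytochrome c from mitochondria, were examined in PANC-1 cells, a long-established line from a human pancreatic carcinoma, after silencing of the palmitoyl acyltransferase ZDHHC20. They were taken by name as the pro-survival genes BCL2, BCL2L1 and MCL1, the effector genes BAX and BAK1, and the BH3-only genes BID, BAD, BBC3, PMAIP1 and BCL2L11. All 10 were among the 27394 genes listed in the deposited table, and all 10 had a mean above the limit for testing. The cells, grown with serum in a medium that the labels give as RPMI-1640 and the study's methods as DMEM, carried a control shRNA (shControl, n = 3 libraries) or an shRNA against ZDHHC20 (shZDHHC20, n = 3 libraries), and total RNA was sequenced with a strand-specific kit. The labels do not say which shRNA was used, whether the libraries came from separate infections, or when RNA was taken, so the p-values measure only the spread between these libraries. The labels call the treatment a transfection and infection and give no selection step. The sample titles say shRNA, as used here, while the columns of values are named siZDHHC20 and NC.

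In the textbook account, the effector proteins BAX and BAK form pores in the outer mitochondrial membrane, through which cytochrome c leaves. BCL-2, BCL-XL (from BCL2L1) and MCL-1 hold these effectors in check. BH3-only proteins either occupy the pro-survival proteins or activate the effectors directly: BIM (from BCL2L11), BID and PUMA (from BBC3) bind broadly, NOXA (from PMAIP1) binds mainly MCL-1, and BAD binds BCL-2 and BCL-XL but not MCL-1. Many of these proteins are controlled after transcription, by phosphorylation, cleavage or degradation, which RNA levels do not show.

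With ZDHHC20 silencing, 2 of the 10 genes were lower and 0 were higher at an adjusted p under 0.05 in limma's moderated test. The 2 were MCL1 and PMAIP1, a pro-survival gene and the gene of the BH3-only protein that binds its product. MCL1 fell to 84.1% and PMAIP1 to 68.9% of the shControl mean. Over all 22189 genes tested, 6.84% were lower and 4.61% higher by this rule, or 11.5% in either direction. Many of those genes had low values. With only the 15101 genes averaging at least 10 tested, 19.4% passed in either direction, near the share of the members. All 10 members were above that limit, and the same 2 passed. At an unadjusted p under 0.05, 4 members were lower and 0 were higher, beside 12.6% and 11.2% of all genes tested. These shares, and that of genes without overlap given below, include the genes with low values. They were not counted among genes averaging at least 10. The median log2 fold change was -0.19 over the 10 genes and 0.01 over all genes tested. In 3 of the 10 genes no shZDHHC20 library reached into the shControl range, beside 28.6% of all genes tested.

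The silenced gene itself fell in all 3 shZDHHC20 libraries, to 42.6% of the shControl mean (-1.23 on the log2 scale, limma's adjusted p = 4.36e-07). Values are called normalized counts here because within each library they rise in whole steps, as counts of reads scaled by a constant would. The table itself is named FPKM, and in the shControl libraries the steps are so close to 1 that this reading could not be checked independently, so values per kb rest on it. Each library held between 16575546 and 18441049 such steps. The 6 genes taken as markers of the PANC-1 line, KRT8, KRT18, KRT19, VIM, S100A6 and ANXA2, had means from 6111 to 53858. Not all of these are specific to ductal cells. Of the markers of acinar, endocrine, leukocyte, endothelial and red cells, those listed had means of at most 6.66, and of the 4 fibroblast markers COL1A1 was at 3596 and the others listed at 3.85 or less. The fibroblast markers summed to between 3885 and 3961 in the shControl and between 3115 and 3384 in the shZDHHC20 libraries, nearly all of it COL1A1, and the part of this in the results was not tested. shZDHHC20 replicate 2 stood apart from its group. The SD of its log2 differences over 4136 abundant genes was 0.178 from replicate 1 and 0.198 from replicate 3, which differed from each other by 0.0722. Results that rest on this library are given with and without it.

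MCL1 (ENSG00000143384) spans positions 150574551 to 150579738 of chromosome 1 (GRCh38, minus strand) and encodes a short-lived protein that restrains BAK. Control libraries 1 to 3 held 7197, 7139 and 7405 normalized counts of MCL1, against 6086, 6125 and 6079 in shZDHHC20 libraries 1 to 3. Every silenced library was below every control. The mean changed from 7247 ± 140.0 to 6097 ± 24.7 (SD, n = 3 each), a difference of -0.25 on the log2 scale (standard error 0.0422, 95% interval -0.34 to -0.16, adjusted p = 0.00186 from limma). An exact permutation test over the libraries cannot go below p = 0.1 (two-sided) with 3 against 3, and MCL1 was at that limit. ADAMTSL4-AS1 lies over MCL1 on the same strand but shares 2 exonic bases with it and had a mean of 19.04 or less in either group. Long and short MCL1 transcripts, whose proteins act in opposite directions, are not told apart in a gene count. As for every gene of a bulk sample, fewer expressing cells and less RNA per cell cannot be told apart.

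PMAIP1 (ENSG00000141682) spans positions 59899948 to 59904306 of chromosome 18 (GRCh38, plus strand). Control libraries 1 to 3 held 524, 586 and 578 normalized counts of PMAIP1, against 374, 404 and 385 in shZDHHC20 libraries 1 to 3. The highest shZDHHC20 library was well below the lowest shControl library. The mean changed from 563 ± 33.2 to 388 ± 15.0 (SD, n = 3 each), a difference of -0.54 on the log2 scale (standard error 0.0798, 95% interval -0.71 to -0.36, adjusted p = 0.000754 from limma). No other annotated gene overlaps PMAIP1. Both calls were the same without shZDHHC20 replicate 2, and neither was made without the mean-variance trend of limma (adjusted p = 0.104 for MCL1 and 0.0521 for PMAIP1).

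**Figure D1:**
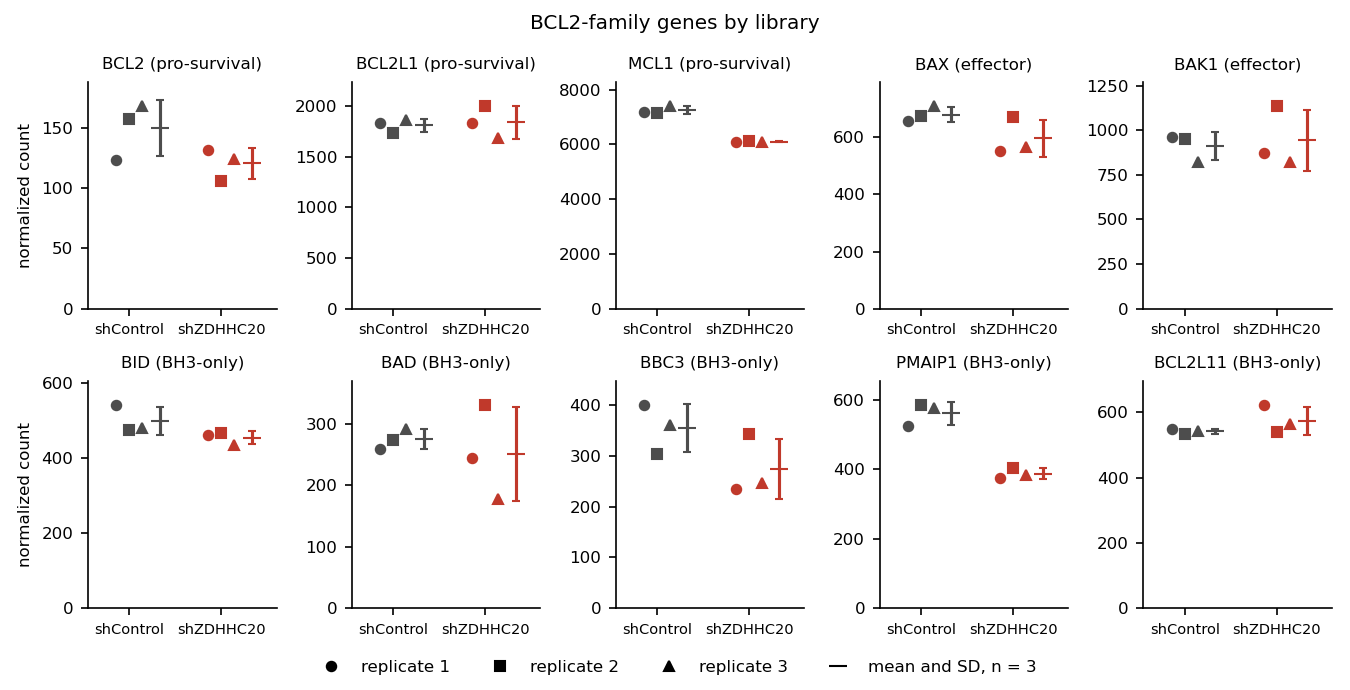
Normalized count (y axis, from 0) of the 10 BCL2-family genes in each shControl (grey) and shZDHHC20 (red) library, with the mean and SD (n = 3) beside the points. The groups are separate for MCL1, PMAIP1 and BID, and shZDHHC20 replicate 2 (square) is the highest of all 6 libraries for BCL2L1, BAK1 and BAD.

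Because MCL1 and PMAIP1 encode a binding pair, their levels were also set against each other within each library, as normalized counts per kb of exons. This ratio and those below were chosen after the values were seen and were given no test. The share of all gene pairs without overlap was not counted. The level of MCL1 per kb was 7.02, 6.23 and 6.55 times that of PMAIP1 in shControl libraries 1 to 3, against 8.32, 7.76 and 8.08 times in shZDHHC20 libraries 1 to 3. The ratio was higher in each shZDHHC20 library than in any shControl library, with means of 6.60 ± 0.393 and 8.05 ± 0.282 (SD, n = 3 each). This rise follows from the larger fall of PMAIP1 given above and is not a separate result. The ratio of BCL2L1 to BAX per kb was 2.19, 2.02 and 2.04 in the shControl libraries and 2.59, 2.33 and 2.33 in the shZDHHC20 libraries, also without overlap. The ratio of BAX to BCL2 per kb, a common summary of the family, overlapped between groups, with 20.9 ± 2.83 in the shControl and 22.8 ± 5.20 in the shZDHHC20 libraries (SD, n = 3 each). The ratio of MCL1 to BCL2 per kb also overlapped, with 132 ± 21.4 in the shControl and 137 ± 16.1 in the shZDHHC20 libraries (SD, n = 3 each).

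The promoters of 9 of the 10 genes were matched by symbol in RefSeq (GRCh38.p14), as windows of 250 bases before and 50 after the RefSeq start, and MCL1 was not among them. GENCODE places the starts elsewhere, at 59899948 for PMAIP1 and 48954815 for BAX. The last bases printed for each therefore lie inside the gene by that annotation. The 250 bases before the start are shown for PMAIP1, the member with the largest log2 difference, at chr18:59899746-59899995 on the plus strand. Capitals mark the CRE half-site TGACGT, read on the minus strand as ACGTCA, and the GC box GGGCGG or CCGCCC. They are also shown for BAX, at chr19:48954625-48954874 on the plus strand, where capitals mark the E-box CACGTG, the site that MYC and its partner MAX bind. BAX was chosen because it was the member with the most E-boxes.
PMAIP1: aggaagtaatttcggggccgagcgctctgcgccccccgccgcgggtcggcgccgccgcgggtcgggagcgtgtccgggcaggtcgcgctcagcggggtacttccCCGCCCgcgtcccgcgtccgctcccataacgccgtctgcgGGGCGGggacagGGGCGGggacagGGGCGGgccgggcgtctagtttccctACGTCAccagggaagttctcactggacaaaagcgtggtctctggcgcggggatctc
BAX: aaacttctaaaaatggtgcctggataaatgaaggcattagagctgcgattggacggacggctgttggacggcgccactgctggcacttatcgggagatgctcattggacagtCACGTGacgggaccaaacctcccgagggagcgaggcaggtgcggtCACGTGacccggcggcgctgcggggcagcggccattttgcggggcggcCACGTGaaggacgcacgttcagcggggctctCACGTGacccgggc

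The PMAIP1 window held 1 CRE half-site, 56 bases before the RefSeq start, and 4 GC boxes. The CRE half-site, searched on both strands, was found in 2 of the 9 members, PMAIP1 and BAD, and in 7.98% of 35116 windows of all genes. GC boxes were in 6 of the 9 members and in 45.0% of all windows. The E-box was in 2 of the 9, with 4 matches in BAX and 1 in BBC3, and in 7.26% of all windows. The full palindromic CRE, TGACGTCA, which contains the half-site, was in 0 of the 9 and in 1.85% of all windows. The CCAAT box was in 5 of the 9 and in 34.6% of all windows. A match of letters is not a binding site, and these motifs were chosen after the fold changes were known.

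The effector genes did not pass the test. Control libraries 1 to 3 held 656, 673 and 710 normalized counts of BAX, against 551, 671 and 565 in shZDHHC20 libraries 1 to 3. shZDHHC20 replicates 1 and 3 were below every shControl library, and replicate 2 was level with shControl replicate 2. The log2 fold change was -0.19 (95% interval -0.38 to -0.01, adjusted p = 0.178 from limma), and without shZDHHC20 replicate 2 it was -0.28 (adjusted p = 0.00575). BAK1 had 964, 949 and 824 in the shControl and 873, 1136 and 820 in the shZDHHC20 libraries, in order of replicate. shZDHHC20 replicate 2 was above the shControl range, replicate 3 just below it and replicate 1 within it. The log2 fold change was 0.04 (95% interval -0.19 to 0.27, adjusted p = 0.882), and the sign turned without shZDHHC20 replicate 2 (-0.11, adjusted p = 0.361) and without shControl replicate 3 (-0.035). BAK1 has 2 annotated pseudogenes with which reads could be shared, while no other gene overlaps BAX.

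Of the other pro-survival genes, BCL2L1 was level between groups. Its normalized counts in order of replicate were 1837, 1738 and 1858 with shControl, against 1828, 2002 and 1683 with shZDHHC20. shZDHHC20 replicate 2 was above the shControl range, replicate 3 below it and replicate 1 within it, and the 95% interval of the log2 fold change, -0.12 to 0.16, left out a change as large as that of MCL1. The estimate of 0.018 turned its sign without shControl replicate 2 (-0.011) and without shZDHHC20 replicate 2 (-0.045). ABALON, an antisense gene with a mean of 79.1 or less, shares 1424 exonic bases with BCL2L1. BCL2, the gene first found at the breakpoint of follicular lymphoma, had 123, 158 and 168 in the shControl and 131, 106 and 124 in the shZDHHC20 libraries. The groups overlapped because of shControl replicate 1, and the log2 fold change of -0.31 (95% interval -0.63 to 0.02) did not pass (adjusted p = 0.239 from limma).

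Among the BH3-only genes, BBC3, which is induced by DNA damage in many tissues, had the second largest difference. Its normalized counts in order of replicate were 400.1, 304 and 360.4 with shControl, against 234, 343 and 246 with shZDHHC20. Replicates 1 and 3 of the shZDHHC20 group were below every shControl library, and replicate 2 was within the shControl range. The log2 fold change was -0.38 (95% interval -0.69 to -0.08, adjusted p = 0.11 from limma), and -0.55 without shZDHHC20 replicate 2 (adjusted p = 0.00231). BAD, whose protein is held inactive by phosphorylation, had 259.7, 274 and 292 in the shControl and 244, 331 and 177 in the shZDHHC20 libraries. The shZDHHC20 libraries of BAD spanned the whole shControl range, and the log2 fold change of -0.18 (adjusted p = 0.576) became -0.40 without replicate 2 (adjusted p = 0.0363) and 0.045 without replicate 3. BAD shares 404 exonic bases with GPR137 on the other strand, which had means of 1637 in the shControl and 1435 in the shZDHHC20 group. Since it is not stated whether the counting used the strand, the value of BAD is uncertain.

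BID, which caspase-8 cleaves and so links death receptors to mitochondria, had 542, 475 and 481 in the shControl and 461, 467 and 434 in the shZDHHC20 libraries. The groups did not overlap, by a margin smaller than the spread within either group, and the log2 fold change of -0.13 did not pass the test (95% interval -0.31 to 0.04, adjusted p = 0.352 from limma) and was -0.075 without shControl replicate 1. BCL2L11, whose splice forms of BIM are not told apart here, had 549.7, 534 and 544 in the shControl and 622, 538 and 563 in the shZDHHC20 libraries. Its log2 fold change of 0.08 (95% interval -0.09 to 0.25, adjusted p = 0.585) was 0.021 without shZDHHC20 replicate 1 and 0.13 without shZDHHC20 replicate 2. BCL2L11 shares 727 exonic bases with the long non-coding gene MIR4435-2HG on the other strand, which had means of 466 and 396.

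**Figure D2:**
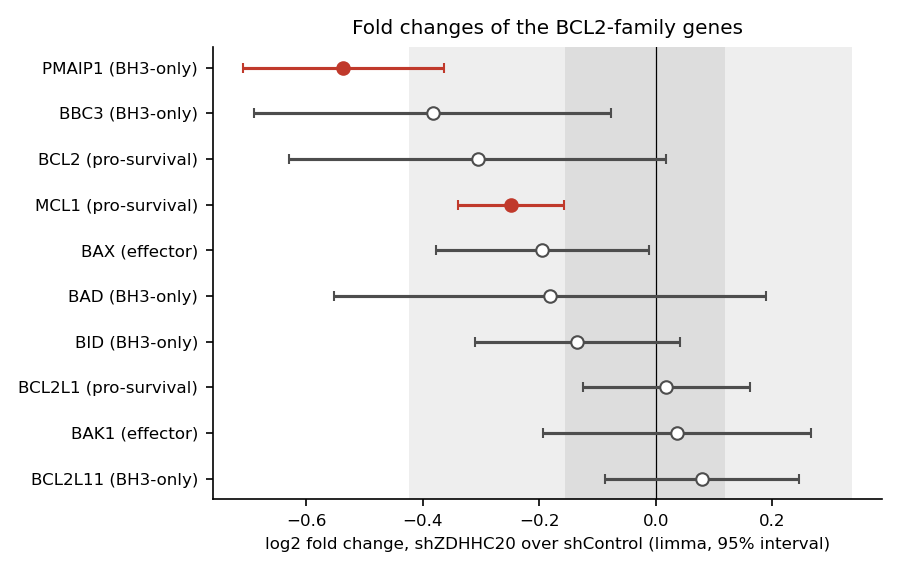
Log2 fold change of shZDHHC20 over shControl (x axis) with the 95% interval from limma for each BCL2-family gene, filled red where the adjusted p was under 0.05. The shaded bands hold the middle 50% and 90% of the 10908 genes averaging 100 or more. PMAIP1 lies outside the wider band, and the 3 positive estimates are within the inner band.

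Read against the whole table, PMAIP1 was below -0.42, the 5th percentile of log2 fold change over the 10908 genes averaging 100 or more. MCL1, BAX, BAD, BBC3 and BCL2 were below the 25th percentile of -0.16 and above the 5th. BID, BCL2L1, BAK1 and BCL2L11 lay between the quartiles, the upper of which was 0.12.

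Several members had a value in shZDHHC20 replicate 2 far from the other 2 libraries of its group. The log2 value of replicate 2 minus the mean of replicates 1 and 3 was 0.67 for BAD, 0.51 for BBC3, 0.43 for BAK1 and 0.27 for BAX. For the other 6 members this difference was between -0.27 (BCL2) and 0.19 (BCL2L1), and it was 0.01 for MCL1 and 0.09 for PMAIP1. The 4 members with the highest differences were those with the highest GC content of the longest transcript, from 58.8% in BAK1 to 69.7% in BBC3, while PMAIP1 had 37.2% and MCL1 45.1%. The same held over the table. Over those 10908 genes the median difference was -0.15 in the fifth with the lowest GC content (up to 40.7%) and 0.16 in the fifth with the highest (from 58.1%). The like difference for shControl replicate 2 was 0.03 and -0.04. Without shZDHHC20 replicate 2, 5 of the 10 members were lower at an adjusted p under 0.05, adding BAX, BAD and BBC3 to MCL1 and PMAIP1, beside 11.1% of all genes tested that were lower and 20% that passed in either direction. Many of all genes tested had low values, unlike the members. The share among genes averaging at least 10 was not counted, here or for the correction that follows. With the trend of GC content removed from each library and all libraries kept, an alternative chosen after the data were seen, 2 members were lower, MCL1 (log2 fold change -0.28) and PMAIP1 (-0.59), beside 8.56% of all genes tested that were lower and 14.1% in either direction. BBC3 then stood at -0.33 (adjusted p = 0.0692), BAX at -0.16 (adjusted p = 0.137) and BAD at -0.13 (adjusted p = 0.616). What set replicate 2 apart was not tested.

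**Figure D3:**
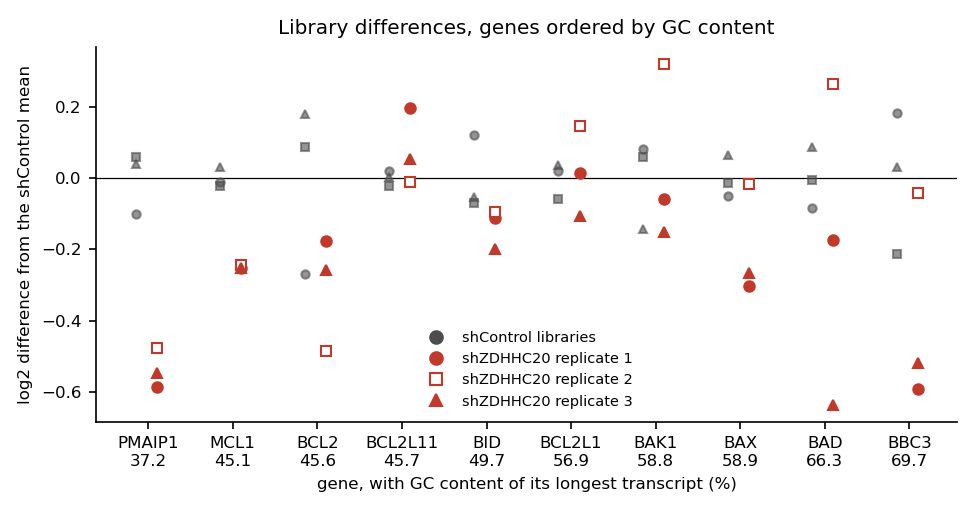
Log2 difference of each library from the shControl mean (y axis) for the 10 genes, ordered from left to right by the GC content of the longest transcript (given in percent under each name). Grey points are shControl libraries and red points shZDHHC20 libraries. The open square, shZDHHC20 replicate 2, lies close to replicates 1 and 3 for PMAIP1 and MCL1 and above them for BAK1, BAX, BAD and BBC3.

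The levels of the 10 genes were compared per kb of exons, using the joined exons of all annotated transcripts. In the shControl libraries MCL1 was the highest, at 1658 ± 32.0 normalized counts per kb (SD, n = 3), and BCL2L1 followed at 546 ± 19.5. BCL2 was the lowest, at 12.7 ± 1.997 per kb. The 3 pro-survival genes thus held both ends of the order. BAK1 (412 ± 34.8 per kb) was above BAX (263 ± 10.7 per kb). PMAIP1 had 252 ± 14.9 per kb, BAD 161 ± 9.58, BID 112 ± 8.31, BBC3 112 ± 15.1 and BCL2L11 81.5 ± 1.16. Of neighbours in this order, BAX and PMAIP1, and BID and BBC3, overlapped between libraries, and the other neighbours did not. With the longest transcript as the length, BAX was above BAK1 (500.4 against 412 per kb), and no other pair changed places.

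**Figure D4:**
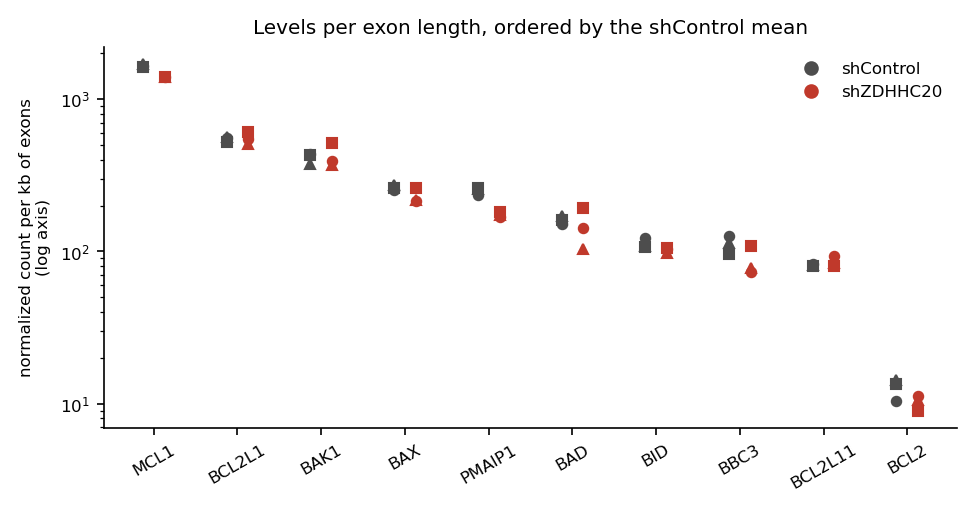
Normalized count per kb of exons (log axis) of each BCL2-family gene in each shControl (grey) and shZDHHC20 (red) library, ordered by the shControl mean. Circles, squares and triangles are replicates 1, 2 and 3. MCL1 is at the top and BCL2 at the bottom in both groups.

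The other genes of the apoptosis pathway were taken from 6 lists holding 65 genes, of which 64 were listed in the table and 63 tested. Of these, 6 were higher and 7 lower at an adjusted p under 0.05, beside 4.61% and 6.84% of all genes tested, and their median log2 fold change was -0.02. With only the 15101 genes averaging at least 10 tested, 19.4% of all genes passed in either direction. Of the 63 genes, 7 averaged under 10, and the calls of the others in that fit were not counted.

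Among 15 further relatives of BCL2 in the table, of which 14 were tested, BNIP3 was lower and 0 were higher by limma (1 was higher at an unadjusted p under 0.05). BNIP3, a mitophagy receptor induced by low oxygen, had 1684 ± 21.4 in the shControl and 1313 ± 93.03 in the shZDHHC20 group (SD, n = 3 each), which is -0.36 on the log2 scale (adjusted p = 0.00219 from limma). It has 39 annotated pseudogenes, so its value is uncertain. The pro-survival gene BCL2L2, the effector-like gene BOK and the BH3-only gene BMF did not pass, with log2 fold changes of 0.16, 0.14 and 0.01. BCL2L2-PABPN1 overlaps BCL2L2 on the same strand, so the value of BCL2L2 is uncertain. BCL2L10 was below the limit for testing.

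Downstream of the BCL2 family, 3 of 5 genes of the apoptosome and the caspases passed the test, 2 higher and 1 lower. APAF1, the scaffold of the apoptosome, rose from 569 ± 38.5 to 714 ± 14.5 (SD, n = 3 each, adjusted p = 0.0103 from limma), and CYCS, which encodes cytochrome c, rose from 4950 ± 43.7 to 5728 ± 160 (SD, n = 3 each, adjusted p = 0.00773). CASP2, which acts in responses to DNA damage and faulty mitosis, fell to 73.3% of the shControl mean (log2 fold change -0.45, adjusted p = 0.00715). The initiator caspase gene CASP9 did not pass (log2 fold change 0.22, adjusted p = 0.447). CYCS has 40 annotated pseudogenes, and APAF1 overlaps ANKS1B on the other strand, so their values are uncertain. With 1 library left out, the calls of APAF1 and CYCS were lost without shControl replicate 1, shControl replicate 3 or shZDHHC20 replicate 1 (adjusted p from 0.0529 to 0.075 in limma), and that of CASP2 without shControl replicate 2 (0.0584).

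Of 8 genes for caspase inhibitors and their antagonists, XIAP and BIRC6 were higher and BIRC3 was lower. XIAP, which blocks caspases directly, rose from 3964 ± 62.3 to 4853 ± 277 (SD, n = 3 each), a log2 fold change of 0.29 (adjusted p = 0.0025 from limma), and has 3 annotated pseudogenes. BIRC3, an NF-κB target that ubiquitinates RIPK1, fell from 2496 ± 71.7 to 1755 ± 104 (SD, n = 3 each), or by 0.51 on the log2 scale (adjusted p = 9.06e-05). BIRC6 rose by 0.19 on the log2 scale (adjusted p = 0.044), and that call was lost without shControl replicate 1, 2 or 3 or without shZDHHC20 replicate 1 or 3 (adjusted p from 0.145 to 0.199). It was also lost with no filter on low values (0.0552) and with a pseudocount of 0.01 (0.0623). DIABLO and HTRA2, whose proteins leave mitochondria to relieve this block, did not pass. A further entry named DIABLO and the gene AC048338.1 overlap DIABLO on the same strand, so the value of DIABLO is uncertain.

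In the death receptor list, 3 of 16 tested genes passed. The receptor genes TNFRSF1A and TNFRSF10B fell, to 78.3% and 82.1% of the shControl mean (log2 fold changes -0.35 and -0.29, adjusted p = 0.000453 and 0.0051 from limma). TNFRSF10D, a decoy receptor for the ligand TRAIL, rose to 136% of the shControl mean (log2 fold change 0.44, adjusted p = 0.00859, and 0.056 without shZDHHC20 replicate 1). It and TNFRSF10B are paralogs, between which reads could be shared, and TNFRSF10B also overlaps RHOBTB2 on the other strand. CASP8 (log2 fold change 0.07) and its inhibitor CFLAR (0.04) did not pass. Of the 3 VDAC genes, which encode the main pores of the outer mitochondrial membrane, 0 passed in limma's test, with 1 higher and 1 lower at an unadjusted p under 0.05.

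Among 17 regulators of BCL2-family genes and proteins, 1 was higher and 2 were lower. MDM2, a ubiquitin ligase, rose from 1347 ± 19.6 to 1759 ± 37.3 (SD, n = 3 each), a log2 fold change of 0.38 (adjusted p = 0.000457 from limma). AC025423.1 overlaps MDM2 on the same strand and CPM on the other, so the value of MDM2 is uncertain. MYC fell from 1870 ± 89.1 to 1240 ± 26.8 (SD, n = 3 each), by 0.59 on the log2 scale (adjusted p = 2.79e-05), and FOXO3, a transcription factor that activates BCL2L11 and BBC3, fell by 0.18 (adjusted p = 0.032), a call that was lost without any of the shControl libraries or shZDHHC20 replicate 1 (from 0.0899 to 0.147). ATF4 and DDIT3, which are known to act on PMAIP1 in stressed cells, did not pass (log2 fold changes -0.09 and -0.02). They are not the only regulators of PMAIP1, and whether MYC or FOXO3 had a part in its fall was not tested. AC022506.1 overlaps DDIT3 on the same strand and ATF4 has 4 annotated pseudogenes, so both values are uncertain. HUWE1, FBXW7 and USP9X, whose products set the stability of MCL-1 protein, did not pass either, with log2 fold changes of 0.08, 0.29 and -0.05. FBXW7 was near the limit (adjusted p = 0.0622 from limma), and its groups did not overlap.

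**Figure D5:**
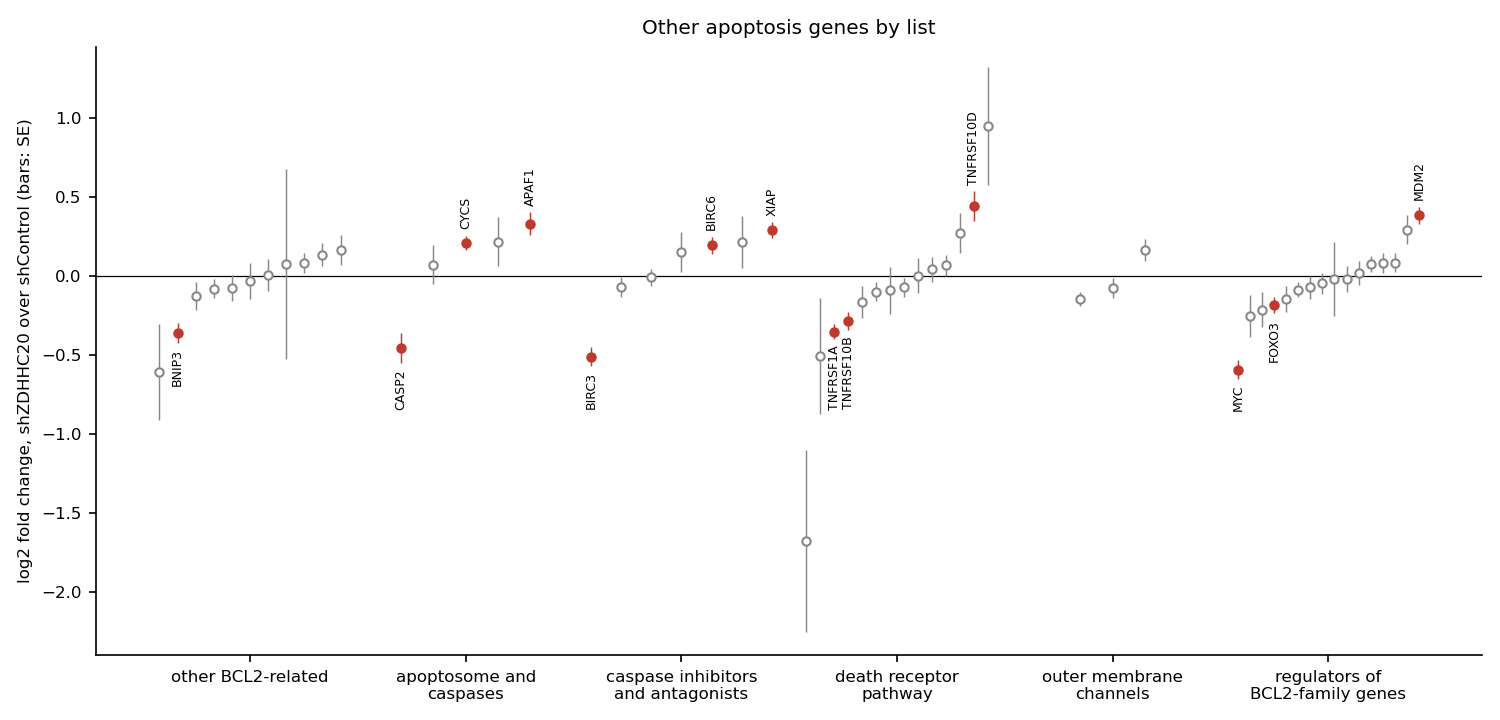
Log2 fold change with its standard error (y axis) of the 56 other apoptosis genes with a mean of at least 10, grouped by list, with genes at an adjusted p under 0.05 filled red and named. Among the apoptosome and caspases APAF1 and CYCS are higher and CASP2 is lower, and each of the other lists with more than 1 called gene also holds both directions.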

How the data were processed

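The deposited table gives 1 value per gene and library for 3 shControl and 3 shZDHHC20 libraries of PANC-1 cells. The values are a normalized signal that the authors deposited under the name FPKM, but in each library they rise in whole multiples of its smallest value above 0 (100% of values, within 0.05 of a whole number), as gene counts over a size factor do, and limma was used on them as a continuous signal and no count model was fitted. The aligner, the counting tool and the annotation are not given in the sources used here, and the submitters' processing notes name the build hg19. Positions, exon lengths, GC content and overlaps came from GENCODE 29 on GRCh38, matched by identifier, and 27175 of 27394 identifiers were matched to a name. Columns named siZDHHC20 and NC were matched to samples by group and number.

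With R 4.3.3 and limma 3.58.1, log2(value + 0.1) was fitted with group as the term across all genes with a mean of at least 1, with eBayes, a mean-variance trend and Benjamini-Hochberg adjustment. Log2 fold changes are on this scale, which understates those of low genes. The script was tested on simulated data. The genes, lists and tests were chosen with earlier results of these data known. The named genes are the 10 members, ZDHHC20, MYC and, in each other list, up to 4 called genes with the smallest adjusted p. Genes of the lists that did not pass and are given with values fall outside this rule and were picked with their values in view. A few genes of these lists are not reported here and were left out of the counts. Figures were drawn with Python 3.11.15 and matplotlib 3.10.9. The alternatives tried were another pseudocount (1 or 0.01), another filter (none, or a mean of 10), scaling by median ratios, quantile normalization, no trend, a replicate block, each library left out and, chosen after the data were seen, a correction for GC content by a spline with 4 degrees of freedom.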

Additional observations from a re-analysis of the deposited data

How the results depend on the processing

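Over 15 alternatives, MCL1 and PMAIP1 passed in 14 each and kept their direction in all. Without the mean-variance trend 0 members were called lower, and 351 genes in all against 2541. Of the other called genes named, MYC passed (adjusted p = 0.0398 from limma) and BNIP3, APAF1, CYCS, CASP2, XIAP, BIRC3, BIRC6, TNFRSF1A, TNFRSF10B, TNFRSF10D, MDM2 and FOXO3 did not (from 0.0524 to 0.295). The other 8 alternatives that kept all libraries gave 2 members lower and 0 higher. With 1 library left out, between 2 and 5 members were called lower, the 5 without shZDHHC20 replicate 2, and between 1233 and 4454 genes in all (1233 without shControl replicate 1 or 3, 1283 without shControl replicate 2, 1375 without shZDHHC20 replicate 1 and 4454 without shZDHHC20 replicate 2). Of the 4454, 2489 were among the 2541. With 1 library left out, the log2 fold change lay between -0.40 and 0.045 for BAD, between -0.11 and 0.13 for BAK1 and between -0.045 and 0.080 for BCL2L1, with both signs. Whether the replicate numbers pair the libraries is not stated. Deviations from the group mean correlated at -0.09, -0.16 and -0.08 between same-numbered libraries over 10908 genes. Between libraries of different number the correlations were from -0.09 to 0.15. With 3 libraries per group, 1 of them apart from the others, these values cannot show whether there was pairing. With the replicate block, 1942 genes passed, and the same 2 members were called lower, while BIRC6 (adjusted p = 0.0688 from limma) and FOXO3 (0.082) no longer passed. The cause of these changes was not tested.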

Other observations

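A few genes of the lists had low values and log2 fold changes beyond those of the members, and they were picked after their values were seen. CASP10, an initiator caspase of death receptors, had 29.3, 10.0 and 10.0 normalized counts with shControl in order of replicate, against 3.18, 5.63 and 4.81 with shZDHHC20 (adjusted p = 0.0844 from limma). BIK, a BH3-only gene, was at 1.01, 1.004 and 2.002 in the shControl and at 8.48, 2.82 and 7.70 in the shZDHHC20 libraries (adjusted p = 0.166). BCL2A1, a pro-survival gene induced by NF-κB, was at 41.4, 63.3 and 50.1 in the shControl and at 22.3, 31.9 and 52.0 in the shZDHHC20 libraries (adjusted p = 0.246). TNFRSF11B, a decoy receptor gene, was at 14.1, 19.1 and 12.0 in the shControl and at 26.5, 19.7 and 45.2 in the shZDHHC20 libraries (adjusted p = 0.13). None of the genes given here passed the test, and not all such genes of the lists are given.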
